A study of Mus musculus with 30 samples.

Results

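The 9 genes described here encode the acetylcholine receptor of skeletal muscle and the proteins that end acetylcholine's action: the receptor subunits *Chrna1*, *Chrnb1*, *Chrnd*, *Chrng* and *Chrne*, the esterases *Ache* and *Bche*, and the esterase anchors *Colq* and *Prima1*. They were chosen by symbol, with earlier results of these data known, and each matched 1 of the 36103 genes of the deposited count table. Poly(A) RNA was read from 2 skeletal muscles (the gastrocnemius of the hindlimb and the diaphragm), from heart and from liver. The mice were males of the 129Pas background, 5 weeks old, either *Mtm1*-/y or wild type (WT) from the same litters. *Mtm1*-/y mice carry a knock-out of the X-linked gene of the phosphoinositide phosphatase myotubularin and are a model of X-linked myotubular myopathy. By the study's methods each library of a group came from its own mouse. Each genotype had 4 libraries of every tissue, except for 3 of *Mtm1*-/y diaphragm and 3 of WT liver. RNA came from whole tissue samples, so fewer cells of a type and less RNA per cell cannot be told apart.

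At the neuromuscular junction the motor nerve releases acetylcholine onto receptors packed in the muscle membrane. The receptor is a ring of 5 subunits, a pair of alpha subunits with 1 beta, 1 delta and either the gamma subunit of fetal muscle or the epsilon subunit that replaces it after birth. In adult muscle the receptor genes are read mainly by the nuclei under the nerve ending, and loss of innervation is known to switch *Chrna1*, *Chrnb1*, *Chrnd* and *Chrng* back on along the whole fibre. Acetylcholinesterase breaks the transmitter down in the synaptic cleft. The collagen tail ColQ ties the enzyme to the matrix of the cleft, and the membrane protein PRiMA ties it to the cell surface. Butyrylcholinesterase is a related enzyme that the liver secretes into the blood.

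Libraries held 24873817 to 44289343 counts. Levels are given in CPM, counts scaled to a common library size, after scaling within a tissue, and as CPM per kilobase of exons where genes are compared with each other. Exon length is the union of all annotated exons of a gene, which need not be the length of its mRNA in these tissues. *Mtm1* itself was at 3.37 to 6.39 CPM in the knock-out libraries and at 12.5 to 31.7 CPM in WT, with no overlap in any tissue. The diaphragm libraries differed in liver RNA. *Alb*, the serum albumin of hepatocytes, was at 294 CPM in WT 3, 565 CPM in *Mtm1*-/y 4 and 1685 CPM in *Mtm1*-/y 1, and at 17700 to 33827 CPM in WT 1, 2 and 4 and *Mtm1*-/y 2. The highest of these was *Mtm1*-/y 2, at 35.5% of the mean of WT liver. Results in the diaphragm are therefore given with these libraries named.

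The stretch of DNA just upstream of the start site is shown for 5 of the genes that the results below turn on, from RefSeq (GRCm38.p6), 250 to 31 bases before the RefSeq start and read on the gene's own strand. Capitals mark E-boxes, CANNTG, the motif that myogenic transcription factors such as myogenin bind, and the N-box, CCGGAA, a motif known from synaptic expression of the adult subunit. Both strands were searched, CAGCTG is 1 of the E-box forms, and no N-box overlapped an E-box.
Chrna1: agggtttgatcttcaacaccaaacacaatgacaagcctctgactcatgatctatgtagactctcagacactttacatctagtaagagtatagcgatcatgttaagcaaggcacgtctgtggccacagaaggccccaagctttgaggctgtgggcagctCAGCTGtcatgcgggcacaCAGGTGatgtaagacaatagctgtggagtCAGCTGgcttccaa
Chrng: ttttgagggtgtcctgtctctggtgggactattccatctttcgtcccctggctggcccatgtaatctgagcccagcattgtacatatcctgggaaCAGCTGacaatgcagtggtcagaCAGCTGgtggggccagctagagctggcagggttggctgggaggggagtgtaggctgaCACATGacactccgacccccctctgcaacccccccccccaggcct
Chrne: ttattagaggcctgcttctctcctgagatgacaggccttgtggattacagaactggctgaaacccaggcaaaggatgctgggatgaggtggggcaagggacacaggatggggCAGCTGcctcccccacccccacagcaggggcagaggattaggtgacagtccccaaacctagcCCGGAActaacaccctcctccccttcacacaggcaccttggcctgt
Chrnb1: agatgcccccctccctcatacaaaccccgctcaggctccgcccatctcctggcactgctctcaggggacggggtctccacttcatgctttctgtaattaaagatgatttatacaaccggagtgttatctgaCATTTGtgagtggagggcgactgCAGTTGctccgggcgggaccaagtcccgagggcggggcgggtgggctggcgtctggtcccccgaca
Prima1: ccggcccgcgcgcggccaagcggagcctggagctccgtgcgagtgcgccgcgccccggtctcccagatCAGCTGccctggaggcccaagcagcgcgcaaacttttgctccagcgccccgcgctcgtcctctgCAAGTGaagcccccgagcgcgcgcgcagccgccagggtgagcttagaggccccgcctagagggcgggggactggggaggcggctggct

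The *Chrna1* window (chr2:73580369-73580588, minus strand) lies upstream of the gene and holds 3 E-boxes, of which 2 are CAGCTG and begin 92 and 44 bases before the start. The *Chrng* window (chr1:87205561-87205780, plus strand) lies inside the annotated span of the gene but outside its exons, since the annotation holds a transcript that starts farther upstream. It also holds 3 E-boxes and 2 CAGCTG, 155 and 132 bases before the start. The *Chrne* window (chr11:70619225-70619444, minus strand) holds 1 E-box, a CAGCTG 138 bases before the start, and the N-box at 76 bases. The windows of *Chrnb1* (chr11:69795968-69796187, minus strand) and *Prima1* (chr12:103242177-103242396, minus strand) hold 2 E-boxes each, with 0 and 1 CAGCTG. Among 32851 promoter windows of the same 220 bases, 62.1% held CANNTG, 11.4% held CAGCTG, 0.983% held at least 2 CAGCTG and 9.47% held CCGGAA. *Ache* and *Bche* had a window too, with 1 and 2 E-boxes and neither CAGCTG nor CCGGAA, and *Chrnd* and *Colq* were not matched.

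In WT gastrocnemius the receptor mRNAs were far from the ratio of the subunits in the protein. Per kilobase of exons *Chrnb1* was the highest at 22.7 ± 3.44 CPM (SD, n = 4), followed by *Chrne* at 17.3 ± 1.18 CPM and *Chrna1* at 8.45 ± 1.64 CPM. *Chrnd* was at 1.64 ± 0.356 CPM per kilobase and *Chrng* at 0.166 ± 0.0414 CPM per kilobase. Of the summed per-length level of the 5 subunits, the fetal subunit made up 0.336% ± 0.0963 and the adult subunit 34.6% ± 2.30 (SD, n = 4 each). The libraries of these 5 genes did not overlap in this order, apart from *Chrnb1* and *Chrne*, where the lowest *Chrnb1* library (17.6 CPM per kilobase) fell below the highest *Chrne* library (18.5 CPM per kilobase). The order depends on the exon lengths. In CPM not divided by length, *Chrna1* at 37.0 ± 7.20 was above *Chrne* at 29.2 ± 1.99, with overlapping libraries.

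All 5 receptor subunits rose in *Mtm1*-/y gastrocnemius, and so did *Ache* and *Colq*, while *Prima1* fell and *Bche* did not pass the test. Thus 7 of the 9 genes rose and 1 fell (adjusted p under 0.05, edgeR's quasi-likelihood test, Benjamini-Hochberg adjustment over 15456 genes). Among all genes tested in this muscle, 14.1% rose and 15.2% fell. The 7 genes that rose were also higher in each *Mtm1*-/y library than in any WT library, as were 14.7% of all genes, and *Prima1* was below the WT range in all 4 knock-out libraries, as were 16% of all genes. The median log2 fold change was 1.77 over the 5 subunits and 0.20 over the 4 genes of acetylcholine breakdown, against 0.02 over all genes. The rise exceeded the study's fold threshold, an absolute log2 fold change of 1, for *Chrna1*, *Chrnb1*, *Chrnd* and *Chrng*, and the fall did for *Prima1*.

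**Figure D1:**
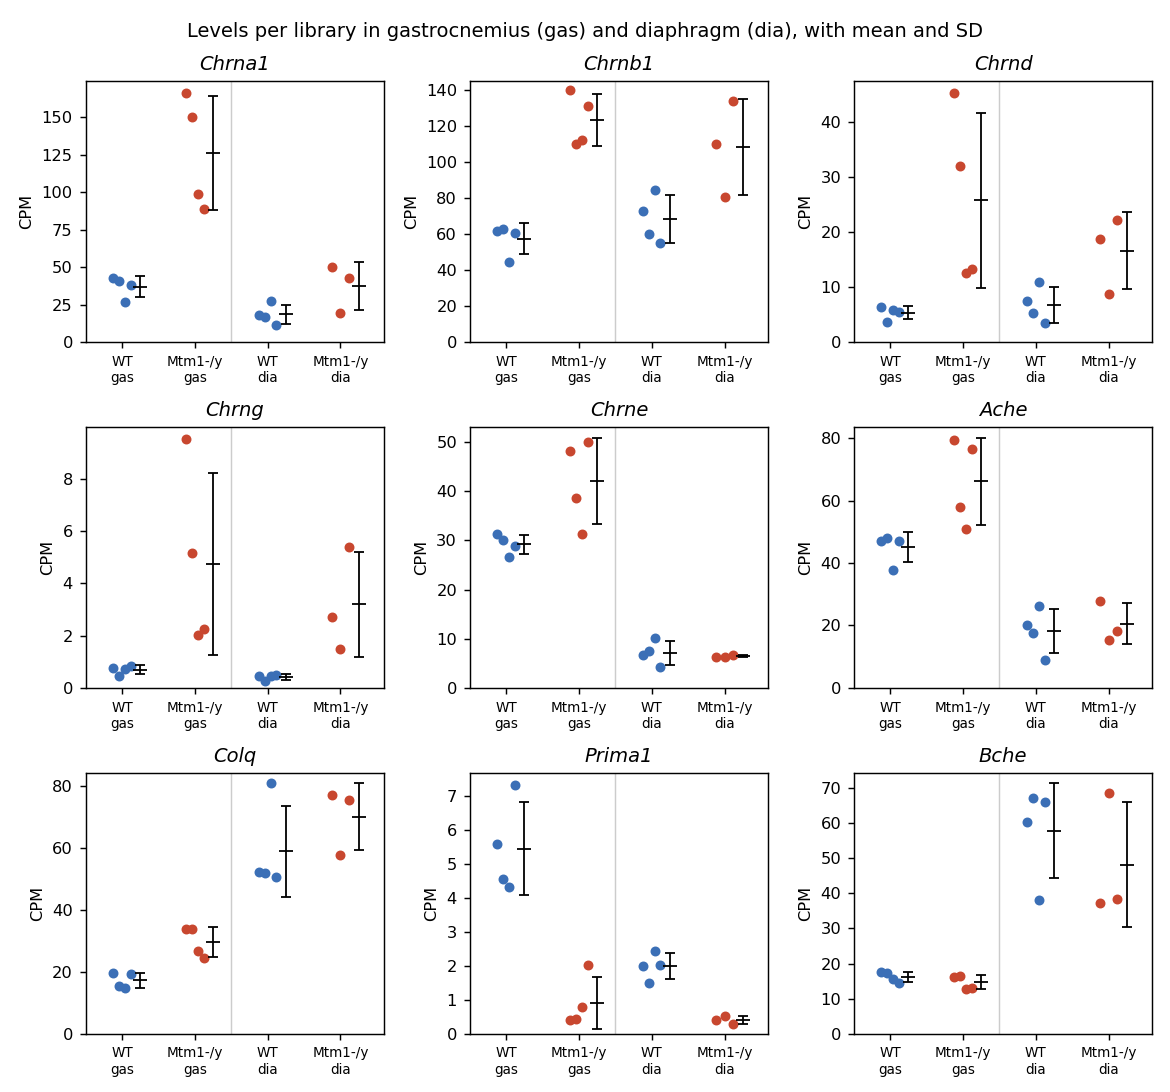
Level of each of the 9 genes in CPM (vertical axes, starting at 0) in every gastrocnemius (gas) and diaphragm (dia) library. Points are libraries in order of their number, blue for WT and red for *Mtm1*-/y, and the black mark and bar give the mean and SD of 4 libraries (3 for *Mtm1*-/y diaphragm). In the gastrocnemius the genotypes do not overlap for any gene except *Bche*.

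*Chrna1*, which encodes the subunit that binds acetylcholine, was at 42.9, 40.6, 26.7 and 38.0 CPM in the 4 WT gastrocnemius libraries and at 167, 150.4, 98.5 and 88.8 CPM in the 4 *Mtm1*-/y libraries. Every *Mtm1*-/y library was thus above the highest WT library, and *Mtm1*-/y 1 and 2 were above 3 and 4. The mean went from 37.0 ± 7.20 to 126 ± 38.2 CPM (SD, n = 4 each), a log2 fold change of 1.77 (SE 0.22, edgeR adjusted p = 0.000543). *Chrnb1*, the beta subunit, was at 61.6, 63.0, 44.4 and 60.6 CPM in WT, against 140.2, 110.3, 112 and 131 CPM in *Mtm1*-/y. Its libraries were the most even of the 5 subunits within *Mtm1*-/y. It rose 2.15-fold (SE 0.12 on the log2 scale, edgeR adjusted p = 0.000323).

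*Chrnd* and *Chrng*, which lie next to each other on chromosome 1 (chr1:87190607-87200070 and chr1:87204657-87212694, both on the plus strand), had the largest rises. *Chrnd*, the delta subunit, was at 6.40, 3.71, 5.87 and 5.55 CPM in WT, against 45.4, 32.1, 12.6 and 13.2 CPM in *Mtm1*-/y gastrocnemius. The first 2 *Mtm1*-/y libraries were again the higher ones. Its log2 fold change was 2.26 (SE 0.42, edgeR adjusted p = 0.00333). *Chrng*, the fetal gamma subunit, rested on 12 to 28 reads in each WT library and on 73 to 397 reads in each *Mtm1*-/y library. In CPM it was at 0.779, 0.441, 0.719 and 0.825 in WT, against 9.52, 5.14, 2.04 and 2.23 in *Mtm1*-/y. The log2 fold change was 2.76 (SE 0.56, edgeR adjusted p = 0.00545), a rise of 6.79-fold from a low level.

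*Chrne*, the adult epsilon subunit, rose least among the subunits. It was at 31.2, 30.0, 26.5 and 29.0 CPM in WT, against 48.2, 38.7, 31.3 and 50.1 CPM in *Mtm1*-/y gastrocnemius. The lowest *Mtm1*-/y library stood just above the highest WT library. The log2 fold change was 0.53 (SE 0.14, edgeR adjusted p = 0.0178), and without WT 3 it was 0.48 with an adjusted p of 0.0523, so the call rested on that library. It was also lost in 1 edgeR fit of all 30 libraries (adjusted p = 0.443). The library *Mtm1*-/y 4, the highest for *Chrne*, was among the lower 2 for *Chrna1*, *Chrnd* and *Chrng*.

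The fetal and the adult subunit were set against each other within each library, as log2 of the *Chrng* level over the *Chrne* level with 0.1 CPM added to both. In WT gastrocnemius this ratio was −5.15, −5.80, −5.02 and −4.97, and in *Mtm1*-/y gastrocnemius −2.33, −2.89, −3.87 and −4.42. Both genotypes had less fetal than adult subunit mRNA in every library, and the lowest *Mtm1*-/y ratio was above the highest WT ratio. The mean moved from −5.24 ± 0.38 to −3.38 ± 0.95 (SD, n = 4 each), a difference of 1.86 on the log2 scale (p = 0.0286 by a two-sided exact permutation test, the smallest that 4 libraries against 4 allow). Per exon length, *Chrng* made up 0.592% to 1.14% of the sum of *Chrng* and *Chrne* in WT and 1.78% to 7.42% in *Mtm1*-/y.

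In the diaphragm the ratio was higher in WT than in WT gastrocnemius, at −3.58, −4.39, −4.20 and −2.94, and reached −1.19, −2.01 and −0.32 in *Mtm1*-/y 1, 2 and 4. The genotypes did not overlap here either. The difference was 2.60 on the log2 scale (p = 0.0571 by a two-sided exact permutation test, the smallest that 4 libraries against 3 allow, so the test cannot pass 0.05). Per exon length, *Chrng* made up 1.40% to 4.29% of the sum of both subunits in WT diaphragm and 8.76% to 24.5% in *Mtm1*-/y diaphragm, and the adult subunit remained the larger part in every library. The change of the ratio in the gastrocnemius minus that in the diaphragm was −0.74 on the log2 scale (exact permutation of genotypes within muscles, two-sided, p = 0.622 over 2450 permutations). That permutation takes neither muscle to have a genotype effect, so it cannot decide whether the ratio changed alike in both muscles.

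**Figure D2:**
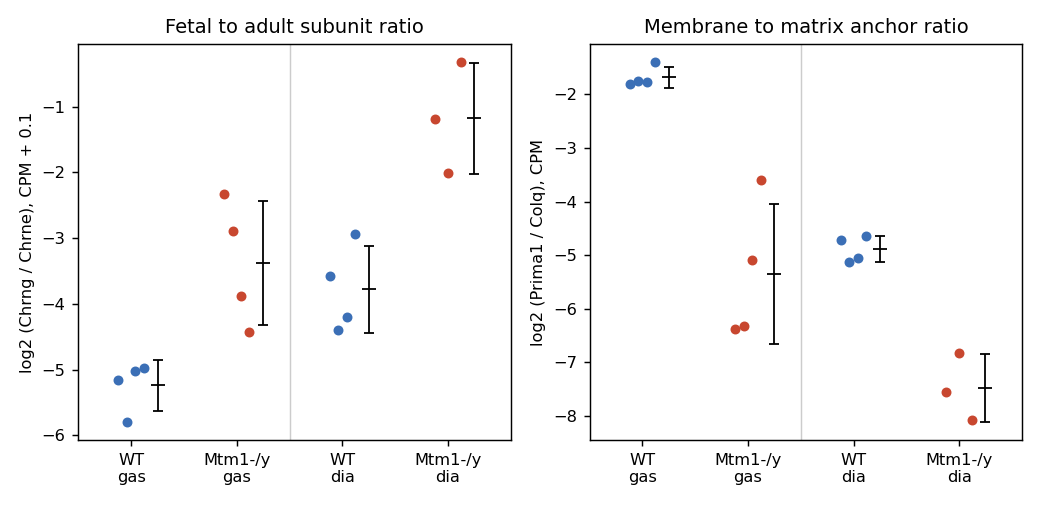
Left, log2 ratio of the fetal subunit *Chrng* to the adult subunit *Chrne* in each library. Right, log2 ratio of the membrane anchor *Prima1* to the matrix anchor *Colq*. Points are libraries (blue WT, red *Mtm1*-/y) and the black mark and bar give the mean and SD for gastrocnemius (gas) and diaphragm (dia). The fetal to adult ratio is higher and the anchor ratio lower in all red points than in the blue points of the same muscle.

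The make-up of the receptor mRNA shifted in the same libraries. Per exon length, *Chrna1* made up 16.7% ± 1.39 of the 5 subunits in WT gastrocnemius and 25.6% ± 4.91 in *Mtm1*-/y (SD, n = 4 each). *Chrne* made up 34.6% ± 2.30 and 22.4% ± 3.65. *Chrnb1* stayed the largest part, at 45.0% ± 1.98 and 44.3% ± 5.54. *Chrnd* made up 3.32% ± 0.914 and 6.70% ± 3.13. *Chrng* was at 0.336% ± 0.0963 in WT and 0.953% ± 0.543 in *Mtm1*-/y, so it remained the rarest of the 5 mRNAs in both genotypes.

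*Ache*, the esterase of the junction, was at 47.2, 48.0, 37.9 and 46.9 CPM in WT, against 79.3, 57.9, 50.9 and 76.4 CPM in *Mtm1*-/y gastrocnemius. No *Mtm1*-/y library reached down to the WT range. The log2 fold change was 0.56 (SE 0.14, edgeR adjusted p = 0.0174). *Colq*, the collagen tail, was at 19.5, 15.4, 14.8 and 19.3 CPM in WT, against 33.8, 34.0, 26.7 and 24.6 CPM in *Mtm1*-/y. Its genotypes were separate as well, with a log2 fold change of 0.79 (SE 0.14, edgeR adjusted p = 0.00253). In 1 edgeR fit of all 30 libraries neither gene passed, with an adjusted p of 0.309 for *Ache* and 0.0548 for *Colq*.

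*Prima1*, the membrane anchor of acetylcholinesterase, moved the other way. It was at 5.59, 4.55, 4.31 and 7.33 CPM in WT, against 0.407, 0.423, 0.781 and 2.02 CPM in *Mtm1*-/y gastrocnemius. The highest *Mtm1*-/y library, *Mtm1*-/y 4, was below the lowest WT library, and the other 3 were below 1 CPM. The mean fell from 5.45 ± 1.37 to 0.908 ± 0.761 CPM (SD, n = 4 each), a log2 fold change of −2.58 (SE 0.41, edgeR adjusted p = 0.00166). The log2 ratio of *Prima1* to *Colq* was −1.80 to −1.39 in WT and −6.38 to −3.60 in *Mtm1*-/y. PRiMA is best known from neurons. Of 10 Schwann cell markers 1 rose and 0 fell in this muscle, where 14.1% of all genes rose and 15.2% fell. The marker that rose was *Egr2*, a factor of myelination, at 2.53 ± 1.45 and 6.56 ± 3.52 CPM. Summed, the Schwann cell markers were at 161 to 541 CPM in WT, against 239.6 to 664 CPM in *Mtm1*-/y, with no marker at 0 in any library. Their part in the level of *Prima1* was not tested.

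*Bche* was at 17.5, 17.3, 15.5 and 14.6 CPM in WT, against 16.2, 16.5, 12.7 and 13.1 CPM in *Mtm1*-/y gastrocnemius. The libraries overlapped, and the log2 fold change was −0.15 (SE 0.11, edgeR adjusted p = 0.333). Hepatocyte markers summed to 38.7 to 143 CPM in WT gastrocnemius, against 19.4 to 77.7 CPM in the knock-out.

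In the diaphragm 0 of the 9 genes passed edgeR's test, where 0% of 16796 genes rose and 0.0119% fell. The study's own DESeq2 analysis called more genes in this muscle, so a gene that did not pass here is not shown to be unchanged. At an unadjusted p under 0.05 there were 5 of the 9, namely *Chrna1*, *Chrnb1*, *Chrnd*, *Chrng* and *Prima1*. DESeq2 called 2 of the 9, *Chrng* as higher (1.71% of 18403 genes rose) and *Prima1* as lower (0.674% fell), and limma's voom with sample weights called 0. These were also the 2 genes whose libraries did not overlap. In this muscle 5.4% of all genes had every *Mtm1*-/y library above every WT library, and 4.57% had every one below. The common coefficient of variation between libraries was 0.394 in the diaphragm and 0.171 in the gastrocnemius.

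*Chrng* was at 0.463, 0.261, 0.457 and 0.477 CPM in WT diaphragm, from 11 to 16 reads, and at 2.70, 1.49 and 5.38 CPM in *Mtm1*-/y 1, 2 and 4. Its log2 fold change was 2.95 (SE 0.45). The adjusted p was 0.238 by edgeR and 3.95e-06 by DESeq2. *Prima1* was at 2.00, 1.49, 2.45 and 2.03 CPM in WT diaphragm and at 0.410, 0.512 and 0.278 CPM in *Mtm1*-/y. Its log2 fold change was −2.32 (SE 0.29). The adjusted p was 0.233 by edgeR and 3.68e-07 by DESeq2. Without the library *Mtm1*-/y 2, edgeR called both genes as well, with adjusted p of 0.0374 for *Chrng* and 0.0395 for *Prima1*, and DESeq2 called 5 of the 9.

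The other subunits had values in the diaphragm that split by liver RNA as well as by genotype. *Chrna1* was at 18.0, 17.0, 27.3 and 11.7 CPM in WT, against 49.9, 19.2 and 42.6 CPM in the knock-out (log2 fold change 1.01, SE 0.38, edgeR adjusted p = 0.387). *Chrnb1* was at 73.0, 60.2, 84.6 and 55.3 CPM in WT, against 109.9, 80.8 and 134 CPM in the knock-out (log2 fold change 0.67, SE 0.21, edgeR adjusted p = 0.328). *Chrnd* was at 7.43, 5.29, 11.0 and 3.49 CPM in WT, against 18.8, 8.75 and 22.2 CPM in the knock-out (log2 fold change 1.29, SE 0.44, edgeR adjusted p = 0.363). In each of the 3 genes the overlap came from WT 3, the WT library with the least *Alb*, and *Mtm1*-/y 2, the library with the most. Among the 3 libraries with 1685 CPM of *Alb* or less, *Mtm1*-/y 1 and 4 were above WT 3 for all 3 genes. Among the 4 with more, *Mtm1*-/y 2 was above WT 1, 2 and 4. The first set held 1 WT library and the second 1 *Mtm1*-/y library, so this order could not be tested. With log2 *Alb* as a covariate edgeR still called 0 of the 9, with the smallest adjusted p at 0.0510 for *Prima1* and 0.0621 for *Chrng*.

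**Figure D3:**
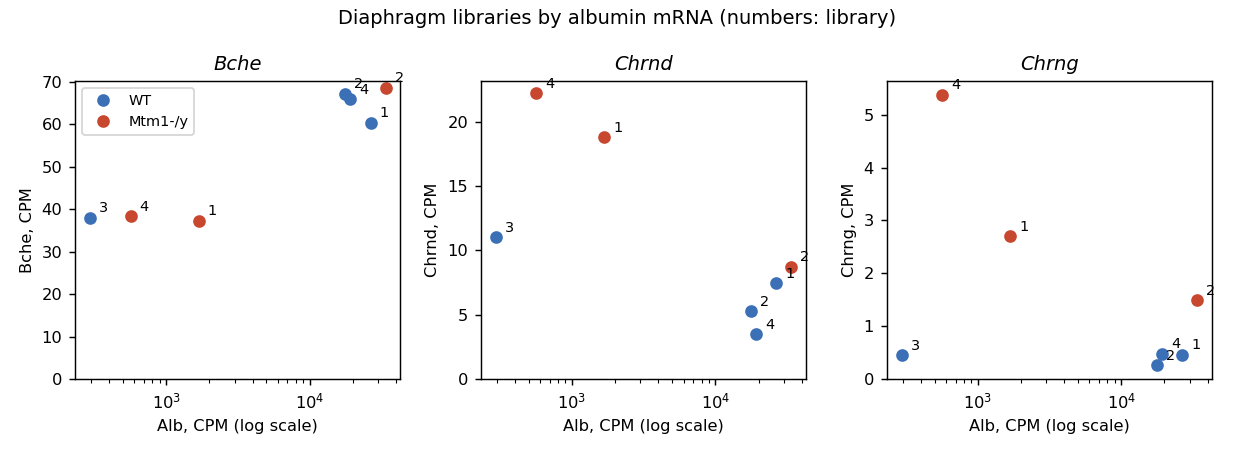
Level of *Bche*, *Chrnd* and *Chrng* (vertical axes, CPM, starting at 0) against the level of *Alb* (horizontal axis, CPM, log scale) in the 7 diaphragm libraries, numbered by library (blue WT, red *Mtm1*-/y). *Bche* is at 60.3 CPM or more in the 4 libraries rich in *Alb* and at 38.3 CPM or less in the other 3. For *Chrnd* and *Chrng* the red points lie above the blue ones within each of these 2 sets. The set of 4 holds 1 red point and the set of 3 holds 1 blue point, with *Alb* from 294 to 1685 CPM in the set of 3.

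*Chrne* had no like pattern, with 6.63, 7.47, 10.1 and 4.33 CPM in WT diaphragm, against 6.30, 6.31 and 6.74 CPM in the knock-out (log2 fold change −0.15, SE 0.26, edgeR adjusted p = 0.923). The 3 *Mtm1*-/y libraries lay within the WT range. *Ache* was at 20.2, 17.6, 26.1 and 8.92 CPM in WT, against 28.0, 15.3 and 18.3 CPM in the knock-out (log2 fold change 0.17, SE 0.36). *Colq* was at 52.4, 52.0, 81.2 and 50.8 CPM in WT, against 77.2, 57.9 and 75.6 CPM in the knock-out (log2 fold change 0.25, SE 0.20). Here too WT 3 was the highest WT library and *Mtm1*-/y 2 was the lowest *Mtm1*-/y library, for both genes.

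*Bche* divided the diaphragm libraries by liver RNA. It was at 60.3, 67.2, 38.0 and 65.9 CPM in WT, against 37.3, 68.6 and 38.3 CPM in the knock-out (log2 fold change −0.27, SE 0.28, edgeR adjusted p = 0.819). The 4 libraries rich in *Alb* were the 4 with the most *Bche*. WT liver had 117 ± 15.4 CPM of *Bche* (SD, n = 3), and at the ratio of *Bche* to *Alb* in WT liver, the *Alb* of these 4 libraries would come with 21.7 to 41.4 CPM of *Bche*. Less that amount, *Bche* was at 27.8 to 45.5 CPM in the WT libraries and at 27.2 to 37.6 CPM in the *Mtm1*-/y libraries, and the genotypes overlapped.

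In the heart the muscle receptor was nearly absent. *Chrnd* had 0 reads in all 8 heart libraries, so that its level in WT gastrocnemius was at least 216-fold higher than the 3 counts over the WT group that a count of 0 allows, and in *Mtm1*-/y at least 898-fold. *Chrng* had 1 read over the 4 WT and 2 over the 4 *Mtm1*-/y libraries, *Chrna1* had 7 and 7, and *Chrne* had 5 and 3. These genes and *Prima1*, with 3 to 17 reads in a library, were below the filter on low counts. *Chrnb1* was the exception, at 11.6, 10.7, 9.68 and 10.2 CPM in WT, against 13.4, 9.46, 9.23 and 11.4 CPM in *Mtm1*-/y heart. The genotypes overlapped (log2 fold change 0.05, SE 0.14, edgeR adjusted p = 0.894). Of the 4 genes tested in the heart, 0 passed edgeR's test, 0 had an unadjusted p under 0.05 and DESeq2 called 0 (0.00656% of 15238 genes passed edgeR's test).

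*Ache* in the heart was at 3.71, 3.46, 3.54 and 8.59 CPM in WT, against 2.10, 5.30, 3.26 and 2.41 CPM in the knock-out (log2 fold change −0.57, SE 0.38). *Colq* was at 9.79, 13.2, 10.8 and 3.55 CPM and at 6.62, 13.7, 14.7 and 6.48 CPM (log2 fold change 0.15, SE 0.41). WT 4 was thus the highest WT heart for *Ache* and the lowest for *Colq*, outside the range of the other WT libraries in both. *Bche* ranged over 78.2 to 107 CPM in WT heart, against 95.9 to 106 CPM in the knock-out (log2 fold change 0.08, SE 0.10).

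In the liver *Bche* was the only one of the 9 genes above 1 CPM in any library. It was at 100.4, 119 and 131 CPM in WT, against 127, 166, 129 and 148 CPM in *Mtm1*-/y, with overlap, and the log2 fold change was 0.29 (SE 0.13, edgeR adjusted p = 0.959). *Chrnb1* and *Ache* also passed the filter, at 0.244 to 0.973 and 0.181 to 0.719 CPM over both genotypes. *Chrne* did not pass it, at 0.129, 0.355 and 0.339 CPM in WT liver, against 0.144, 0.0361, 0.0324 and 0.147 CPM in the knock-out, with overlap. Of these 3 genes tested, 0 passed edgeR's test, 0 had an unadjusted p under 0.05 and DESeq2 called 0 (0% of 14305 genes passed edgeR's test). *Mtm1* itself thus did not pass in the liver, and the study's own DESeq2 analysis called more genes in heart and liver. A gene that did not pass in these tissues is not shown to be unchanged.

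**Figure D4:**
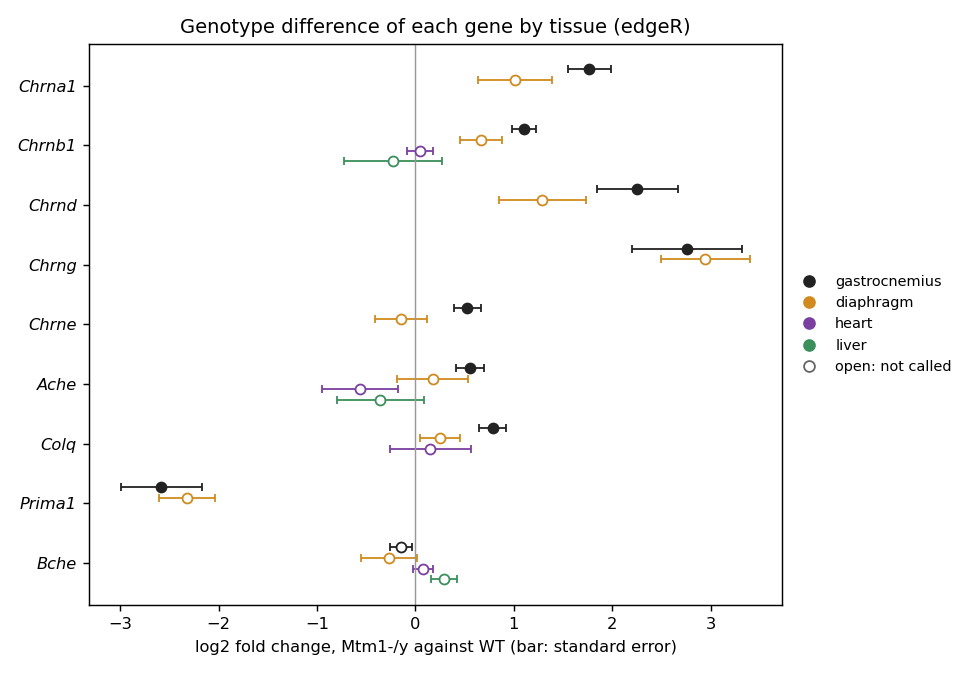
Log2 fold change of *Mtm1*-/y against WT (horizontal axis) with its standard error for each gene and tissue in which it passed the filter on low counts. Filled points passed edgeR's test at an adjusted p under 0.05, and all 8 of them are in the gastrocnemius, with *Prima1* at −2.58 and *Chrng* at 2.76.

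The levels of these genes were also compared between tissues of WT mice. In a joint edgeR fit of both muscles, 6 of the 9 genes differed between WT gastrocnemius and WT diaphragm, where 54.7% of 17509 genes did. *Chrne* was higher in the gastrocnemius by 2.37 on the log2 scale (SE 0.21, adjusted p = 2.44e-06), *Prima1* by 1.79 (SE 0.40), *Ache* by 1.64 (SE 0.28) and *Chrna1* by 1.34 (SE 0.32). *Colq* and *Bche* were higher in the diaphragm, with differences of −1.44 (SE 0.18) and −1.50 (SE 0.21) for gastrocnemius minus diaphragm. WT diaphragm 1, 2 and 4 held the liver RNA described above. Less the *Bche* that it would carry, the mean of WT diaphragm was 38.3 ± 7.72 instead of 57.8 ± 13.6 CPM (SD, n = 4), and its lowest library, at 27.8 CPM, was above the highest WT gastrocnemius library, at 17.5 CPM. *Chrnb1* at 0.09 (SE 0.17), *Chrnd* at 0.00 (SE 0.45) and *Chrng* at 1.09 (SE 0.57, adjusted p = 0.119) did not pass. The log2 ratio of *Colq* to *Ache* was thus negative in all 4 WT gastrocnemius libraries, −1.64 to −1.27, and positive in all 4 WT diaphragm libraries, 1.37 to 2.51. In WT diaphragm 3, with the least *Alb*, *Chrna1* was at 27.3 CPM, against 26.7 to 42.9 CPM in WT gastrocnemius. Its *Chrnd* was at 11.0 CPM, against 3.71 to 6.40 CPM. Its *Chrne*, *Ache* and *Prima1*, at 10.1, 26.1 and 2.45 CPM, were below every WT gastrocnemius library. CPM were scaled within each tissue, and the part of liver RNA in these differences was not tested.

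WT heart and WT gastrocnemius differed in all 9 genes, where 69.2% of 16627 genes did. *Bche* was higher in the heart by 2.21 on the log2 scale (SE 0.11), and the other 8 genes were lower. Heart minus gastrocnemius was −2.81 (SE 0.14) for *Chrnb1*, −4.66 (SE 0.47) for *Prima1* and −1.25 (SE 0.33) for *Colq*. Per kilobase of exons the order within a tissue changed with it. *Bche* was the seventh of 9 in WT gastrocnemius, at 2.41 ± 0.208 CPM per kilobase, and first in WT heart and WT liver, at 14.4 ± 1.90 and 17.3 ± 2.28 CPM per kilobase. In WT diaphragm the first was *Chrnb1* at 27.0 ± 5.21 CPM per kilobase and the next *Colq* at 15.5 ± 3.87 CPM per kilobase, and the libraries of these 2 genes did not overlap. *Chrne*, *Chrna1* and *Ache* followed *Bche* there at 3.94 to 4.23 CPM per kilobase, closer together than their spread.

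**Figure D5:**
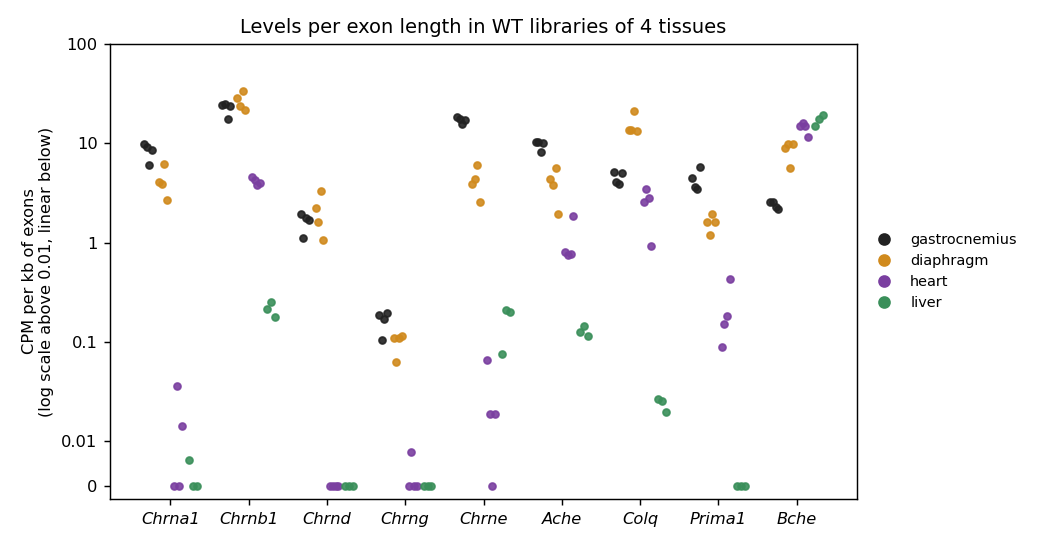
Level of each gene per kilobase of exons (vertical axis, CPM per kilobase, log scale above 0.01 and linear below) in every WT library of 4 tissues. *Chrna1*, *Chrnd* and *Chrng* sit at or near 0 in heart and liver, *Chrne* does so in heart, and in liver *Chrne* (0.162 CPM per kilobase) overlaps *Chrnb1* (0.216 CPM per kilobase), and *Bche* is highest in heart and liver. Tissues were scaled separately.

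The genotype effects of 2 tissues were then compared in the same joint fits. These treat all libraries as independent, and the sources used here do not say whether 2 tissues came from the same mice. Same-numbered libraries of a genotype correlated at −0.149 to 0.285 between gastrocnemius and diaphragm, as deviations from their group means. Between heart and gastrocnemius they did so at −0.179 to 0.193. Between gastrocnemius and diaphragm 0 of the 9 genes differed by edgeR or by DESeq2, and 1 had an unadjusted p under 0.05 (0.28% of 17509 genes passed edgeR's test). That gene was *Chrne*, with a difference of 0.68 on the log2 scale (SE 0.30, adjusted p = 0.354). The difference was 0.98 (SE 0.66) for *Chrnd*, −0.18 (SE 0.73) for *Chrng* and −0.24 (SE 0.67) for *Prima1*, which leaves room for sizeable differences in both directions. Between heart and gastrocnemius *Chrnb1* differed, with heart minus gastrocnemius at −1.04 on the log2 scale (SE 0.19, edgeR adjusted p = 0.00176), where 19.7% of 16627 genes passed. *Ache* did not pass, at −1.11 (SE 0.42, edgeR adjusted p = 0.0720). Both contrasts use the same gastrocnemius libraries. The receptor subunits with a few reads in the heart gave no usable difference.

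Genes that work with the receptor were taken from lists. These lists were chosen with earlier results of these data known, so the counts below are a description. Of 16 denervation-responsive genes, 12 rose and 1 fell in the gastrocnemius, with a median log2 fold change of 1.81 against 0.02 over all genes. Over all genes 14.1% rose and 15.2% fell. *Ankrd1*, a sarcomere protein that responds to stretch, went from 3.77 ± 2.12 to 86.8 ± 29.7 CPM (edgeR adjusted p = 8.895e-05), and *Ncam1*, an adhesion molecule, at 13.4 ± 2.34 and 45.7 ± 9.26 CPM (adjusted p = 0.000143). *Fgfbp1*, which binds fibroblast growth factors, fell from 11.1 ± 1.71 to 1.43 ± 0.530 CPM (SD, n = 4 each). In the diaphragm 0 of 15 tested passed edgeR's test, as 0% of all genes rose and 0.0119% fell there. Their median was 1.82 against −0.01 over all genes.

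Of 23 genes of receptor clustering and synaptic transcription tested, 6 rose and 1 fell in the gastrocnemius, with a median log2 fold change of −0.01. For comparison, 14.1% of all genes rose there and 15.2% fell. *Nes*, an intermediate filament found under the synapse, rose by 1.18 on the log2 scale (97.6 ± 5.91 to 221 ± 49.8 CPM), *Erbb2*, a neuregulin receptor, by 1.11 and *Macf1*, a cytoskeletal linker, by 0.78. Of 19 myogenic and activity-dependent regulators of the receptor genes, 5 rose and 1 fell, with a median of 0.12. The helix-loop-helix inhibitor *Id2* rose by 1.71 and the myogenic factor *Myf6* by 0.91, and *Camk2a*, a calcium-dependent kinase, fell by 0.84 on the log2 scale. *Myog*, which encodes myogenin, rose by 1.85, from 19.1 ± 5.09 to 69.2 ± 35.2 CPM (edgeR adjusted p = 0.00384). The myogenic factors *Myod1* and *Myf5* did not pass (edgeR adjusted p = 0.0561 and 0.844). The part of these factors in the levels of the receptor genes was not tested. In the diaphragm 0 genes of both lists passed edgeR's test. *Myog* was at 9.08 ± 1.89 CPM in WT diaphragm and 45.8 ± 24.8 CPM in the knock-out (edgeR adjusted p = 0.238).

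Of 12 genes in perinatal and adult isoform pairs, 2 of which are *Chrng* and *Chrne* themselves, 6 rose and 5 fell in the gastrocnemius. The shares over all genes in this muscle were 14.1% and 15.2%. Of the 6 perinatal forms 4 rose and 1 fell, and of the 6 adult forms 2 rose and 4 fell. The embryonic myosin *Myh3* rose from 8.56 ± 0.987 to 120.5 ± 96.9 CPM and the perinatal myosin *Myh8* from 11.8 ± 0.466 to 24.4 ± 3.85 CPM. The adult sodium channel *Scn4a* fell from 620 ± 36.1 to 416 ± 26.6 CPM (SD, n = 4 each). Against this split, the cardiac actin *Actc1*, a perinatal form, fell by 2.17 on the log2 scale (edgeR adjusted p = 0.00551), and the adult myosin *Myh1* rose by 1.08 (edgeR adjusted p = 0.00179), as did *Chrne*. Of 11 neuronal nicotinic subunits 3 could be tested and 1 rose, *Chrna9*, with a log2 fold change of 1.86 and overlapping libraries (edgeR adjusted p = 0.0403). Of 5 muscarinic receptors 1 was tested and did not pass (*Chrm3*, at 0.534 ± 0.163 and 0.580 ± 0.153 CPM). The 3 genes of acetylcholine synthesis and loading were below the filter, with *Chat*, the enzyme that makes acetylcholine, at 0 reads in all 8 gastrocnemius libraries.

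Markers of other cells moved beside these genes in the gastrocnemius, where 14.1% of all genes rose and 15.2% fell. All 7 macrophage markers rose (summed 34.2 to 58.0 CPM against 88.2 to 108 CPM in the knock-out), 8 of 10 white adipocyte markers rose (239 to 372 and 368 to 555 CPM) and 5 of 7 fibroblast markers rose (2070 to 4570 and 2760 to 5950 CPM). Of 12 skeletal muscle fibre markers 10 fell and 2 rose, and their sum went from 231000 to 272000 CPM in WT to 147000 to 163000 CPM in *Mtm1*-/y. *Actn3* fell by 0.92 on the log2 scale and *Myh1* rose by 1.08. Of 5 satellite cell markers 2 fell, *Pax7* and *Calcr*, and 2 of 6 endothelial and 2 of 6 smooth muscle and pericyte markers fell. Summed endothelial markers were at 379 to 488 CPM in WT gastrocnemius, against 289 to 357 CPM in the knock-out. Smooth muscle and pericyte markers summed to 602 to 744 CPM, against 458 to 577 CPM. Cardiomyocyte markers summed to 6300 to 7170 CPM, against 587 to 2290 CPM. *Actc1* made up most of this sum, at 6208 to 6916 CPM in WT and 358 to 2087 CPM in *Mtm1*-/y. The median log2 fold change of the tested cardiomyocyte markers was 0.354. For slow fibres 1 of 7 markers fell, for cardiomyocytes 2 of 5 rose and 1 fell, for hepatocytes 1 of 13 rose and 2 fell, and for neurons 0 of 2 passed. In the diaphragm 0 markers of these lists passed edgeR's test, but 3 of the summed levels did not overlap between genotypes. Of single genes in the diaphragm, 5.4% had every *Mtm1*-/y library above every WT library, and 4.57% had every one below. Fibroblast markers summed to 1940 to 3980 CPM in WT diaphragm, against 4230 to 8190 CPM in the knock-out. Satellite cell markers summed to 38.4 to 50.9 CPM, against 28.4 to 35.4 CPM, and endothelial markers to 596 to 683 CPM, against 509 to 585 CPM. The summed neuron markers were at 5.36 to 5.78 CPM in WT gastrocnemius, against 4.55 to 9.60 CPM in the knock-out. The part of these cells in the levels of the 9 genes was not tested.

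Over the 15 skeletal muscle libraries, the genes with the most similar log2 CPM were listed for 4 of the genes, as a description over libraries that share muscle, genotype and scaling. For *Chrng* they were *Fez1* (Pearson r = 0.937), *Arhgdig*, *Chrnd* (0.933), *Osbpl3* and *Uchl1*, so that its neighbour on the chromosome was among the 5 of 15060 genes. For *Chrna1* they were *Ampd3* (0.961), *Hspb8*, *Ube2g2*, *AC168050.1* and *Jpt1*. For *Chrne* they were *Acsl6* (0.969), *Tbx4*, *Il12a*, *Pak1* and *1700109H08Rik*, and for *Prima1* *Gadd45b* (0.943), *Ankrd9*, *2310065F04Rik*, *Faap100* and *Rmi2*. Within the 9 genes the correlation was 0.955 for *Chrne* with *Ache*, 0.876 for *Chrnb1* with *Chrnd* and −0.942 for *Chrne* with *Bche*. *Prima1* had −0.704 to −0.743 with *Chrng*, *Chrnd* and *Chrnb1*.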

How the data were processed

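RNA-seq libraries (TruSeq Stranded mRNA, single 50-base reads) were trimmed by the authors with cutadapt 1.10, aligned to mm10 with STAR 2.5.3a and assigned to Ensembl 96 genes by htseq-count 0.6.1p1 in union mode. The deposited values are these raw counts, and the strand setting is not given in the sources used here, so that *Ache* and *Colq*, which share 98 and 199 exon bases with predicted genes, are uncertain at those bases. Here each tissue was filtered alone (filterByExpr, minimum count 10), scaled by TMM and tested with edgeR 4.0.16 in R 4.3.3 (quasi-likelihood, Benjamini-Hochberg). A gene rose or fell at an adjusted p under 0.05. Alternatives were DESeq2 1.42.0, limma 3.58.1, other scalings and filters, 1 fit of all 30 libraries, a replicate block and each library left out. The *Alb* covariate and DESeq2 with each diaphragm library left out were chosen after the data were seen. Exon lengths come from GENCODE M21. Single ratios were tested by exact permutation (scipy 1.17.1). The fits were tested on simulated counts. The 9 genes and all lists were chosen with earlier results of these data known. Genes of other lists are named by smallest p in the gastrocnemius (up to 3 that passed, otherwise the 2 most abundant). *Myog*, *Myod1* and *Myf5* are named besides, since myogenic factors are given above as binding the E-box.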

Additional observations from a re-analysis of the deposited data

Results flagged for a closer look

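In 5 of 46 groups of 4 libraries, 1 library stood apart from the other 3 (Dixon's test at 95%), where chance marks about 1 group in 20. *Chrnb1* and *Ache* in the gastrocnemius were lowest in WT 3, at 44.4 and 37.9 CPM, with the other WT libraries at 60.6 to 63.0 and 46.9 to 48.0 CPM. *Chrng* in the diaphragm was lowest in WT 2, at 0.261 CPM against 0.457 to 0.477 CPM. *Colq* in the diaphragm was highest in WT 3, the WT library with the least *Alb*, at 81.2 CPM against 50.8 to 52.4 CPM. *Ache* in the heart was highest in WT 4, at 8.59 CPM against 3.46 to 3.71 CPM. The genotype effect on *Chrnb1* differed between the heart and the gastrocnemius, by −1.04 on the log2 scale (edgeR interaction test, adjusted p = 0.00176).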

How the results depend on the processing

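In the gastrocnemius 8 of the 9 genes passed. With 1 fit of all 30 libraries, or with the study's fold threshold, 5 did, without *Chrne*, *Ache* and *Colq*, and 7 to 8 when a library was left out. In the diaphragm 0 passed, against 2 with DESeq2, 2 with the fit of all 30 libraries and 0 to 2 with a library left out (2 without *Mtm1*-/y 2). DESeq2's own count there was 2 to 5 with a library left out, with 5 without WT 3 and 5 without *Mtm1*-/y 2. The comparison of genotype effects between heart and gastrocnemius gave 1 to 2 genes, adding *Prima1* without *Mtm1*-/y gastrocnemius 4 and *Ache* without WT heart 2 or *Mtm1*-/y heart 2. The difference in the *Chrng* to *Chrne* ratio in the gastrocnemius was 1.51 to 2.21 with a library left out, which cannot pass 0.05 by the exact permutation test. With the replicate number as a block it was 1.86, where an exact sign-flip test of 4 pairs cannot pass 0.05. The block gave 8 of 9 genes in the gastrocnemius and 0 in the diaphragm and changed no other count. Same-numbered libraries of both genotypes correlated at −0.0136 to 0.104 in the gastrocnemius and −0.695 to 0.505 in the diaphragm. These few values cannot decide whether the number pairs the libraries. In the diaphragm both libraries numbered 2 were rich in *Alb* (0.505). Of those numbered 1 and 4, only the WT libraries were (−0.349 and −0.695).

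Directions turned for single values near 0, none of them called. In the diaphragm *Chrne* had a log2 fold change of 0.028 with voom and 0.11 with the block, and −0.32 to 0.089 with a library left out, and *Ache* had −0.12 to 0.42. In the heart *Colq* was at −0.17 with voom, and leaving out a library gave −0.12 to 0.37 for *Colq*, −0.069 to 0.12 for *Chrnb1* and −0.0098 to 0.13 for *Bche*. *Chrnb1* in the liver ranged from −0.85 to 0.046. For WT gastrocnemius minus diaphragm, *Chrnd* was at −0.0089 with no filter and −0.025 without liver-enriched genes, and leaving out a library gave −0.22 to 0.33 for *Chrnd* and −0.0045 to 0.20 for *Chrnb1*. For the difference of genotype effects between these muscles, *Chrng* was at 0.11 with the block, and leaving out a library gave −0.78 to 0.40 for *Chrng*, −0.998 to 0.0064 for *Prima1* and −0.011 to 0.47 for *Bche*. The causes were not tested.

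Of 1132 values of single genes under an alternative, 1092 kept their direction and their side of the threshold. Depth limits *Chrng* and *Prima1*, which rest on 11 to 28 and on 11 to 75 reads in their lower groups.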
